A study of Mus musculus with 8 samples.

Results

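The cytosolic ribosomal protein genes were examined in the RNA sequencing counts of 8 Myc-CaP tumors. Members were taken by symbol from the deposited count tables, as names of the form Rpl or Rps followed by a number, Rplp0 to Rplp2 and Rpsa, with pseudogene names left out. The rule gave 81 genes of 38115 identifiers, 49 of the large subunit and 32 of the small subunit. Of these, 79 passed the filter on low counts, and the paralogs Rpl10l and Rpl39l did not.

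Each cytosolic ribosome carries one copy of nearly every ribosomal protein, so the genes are transcribed at high and balanced levels. Their mRNAs start with a pyrimidine tract, the 5′ terminal oligopyrimidine (TOP) motif, through which mTORC1 signalling sets their translation. Myc promotes ribosome production, and free Rpl5 and Rpl11 bind Mdm2 and so stabilise p53. Ribosomal protein mRNAs have also left many processed pseudogenes in the mouse genome, which are copies of the spliced mRNA without introns.

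Myc-CaP is a mouse prostate cancer line driven by Myc. Cells were placed in the anterior prostate of FVB males, and metastases then arose on their own. Androgen sensitive (AS) tumors grew in intact hosts and castrate resistant (CR) tumors in hosts castrated before the transplant. The groups held 2 tumors each: primary AS, metastatic AS, primary CR and metastatic CR. Each phenotype rests on cells of one line in one kind of host. The sample titles carry numbers that form separate series in AS and CR, and what they stand for is not stated. Phenotype, line, host and any batch behind these numbers therefore cannot be told apart. The labels call the metastases matched without naming the primary tumor of each. If matched tumors came from one host, the tumors of a phenotype come from fewer animals than tumors. The fits of CR against AS treat the tumors as independent and do not allow for this. Numbers such as primary CR1 only name tumors, and because nothing says how the tumors of a group were drawn, p-values measure the spread between these tumors only.

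Total counts ran from 20905806 to 91886163 per tumor, and 3 of the 4 CR tumors (primary CR2, metastatic CR1 and metastatic CR2) were the shallowest. The same 3 tumors held 82097 to 113187 CPM (counts scaled to a common library size after TMM normalisation) on Lars2, against 253 to 1304 CPM in the other 5 tumors. Lars2 and the mitochondrial ribosomal RNA genes mt-Rnr1 and mt-Rnr2 together took 19.8% to 32.4% of all counts in these 3 tumors, 11.6% to 14.7% in the AS tumors and 2.67% in primary CR1. Of the epithelial markers, Krt8 stood at 36.4 to 710 CPM, while Krt18, Cdh1 and Epcam stayed under 1 CPM in every tumor. The summed lymphocyte markers were at 0.205 to 0.544 CPM, those of seminal vesicle at or under 0.526 CPM, the macrophage list at 203 to 465 CPM and the fibroblast list at 51.8 to 102 CPM. In bulk tumors, fewer cells of a type and less RNA per cell cannot be told apart.

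The library labelled primary CR1 stood apart from the other CR tumors in the ribosomal protein genes. Across the 79 genes, Pearson's r of log2(CPM + 0.5) between primary CR1 and the 4 AS tumors was 0.988 to 0.990, and between primary CR1 and the other 3 CR tumors 0.927 to 0.937. The other CR tumors correlated with each other at 0.992 to 0.995, and the AS tumors with each other at 0.993 to 0.996. These are descriptions across genes, which are not independent replicates. Primary CR1 was the highest of the 8 tumors in 42 of 79 genes and metastatic CR2 the lowest in 38. Counts of members called by phenotype are therefore given with and without primary CR1, and values of single genes without it only for some. Primary CR1 was singled out by values of these same genes. Adjusted p-values without it therefore describe the remaining tumors and are not independent support for a difference.

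Shared sequence limits every level reported here. The authors kept only reads with a single location in the genome at up to 2 mismatches, so a read of an mRNA stretch that a pseudogene repeats can be lost or placed on the copy. Windows of one read length were compared with the annotated transcripts of all other genes (GENCODE M21, GRCm38). In 56 of the 79 genes with a coding sequence at least as long as a read, no coding window was unique. Over 90% of coding windows were unique in 5 genes, among them Rpl3l, Rpl39l, Rps3 and Rpl8. Over the whole principal transcript, the median unique share was 47.6%, and the lowest was 1.63% in Rps27.

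The following coding windows show how little separates 3 of the genes from a pseudogene with many counts. They come from the GENCODE M21 transcripts and are written 5′ to 3′ on the sense strand, with the differing bases in capitals. Rpl5 (plus strand, chr5:107903839-107904787, a span that includes an intron) is set against Rpl5-ps1 (plus strand, chr1:14865569-14865669). Rps6 (minus strand, chr4:86856171-86856271) is set against Gm16409 (minus strand, chr14:73796967-73797067), and Rplp0 (plus strand, chr5:115561121-115561221) against RP23-463F7.8 (Gm9625 in GENCODE M21, plus strand, chr13:67810586-67810686). Each pair differs at 2 bases.
Rpl5: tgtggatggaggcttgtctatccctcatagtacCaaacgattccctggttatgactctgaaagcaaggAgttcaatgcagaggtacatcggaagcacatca
Rpl5-ps1: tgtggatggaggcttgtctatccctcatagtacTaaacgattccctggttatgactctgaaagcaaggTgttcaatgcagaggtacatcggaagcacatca
Rps6: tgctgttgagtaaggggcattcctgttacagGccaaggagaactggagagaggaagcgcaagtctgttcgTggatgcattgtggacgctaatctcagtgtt
Gm16409: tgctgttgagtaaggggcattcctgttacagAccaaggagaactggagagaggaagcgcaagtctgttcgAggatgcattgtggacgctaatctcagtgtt
Rplp0: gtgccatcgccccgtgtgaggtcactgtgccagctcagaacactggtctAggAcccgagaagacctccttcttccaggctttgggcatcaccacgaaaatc
RP23-463F7.8: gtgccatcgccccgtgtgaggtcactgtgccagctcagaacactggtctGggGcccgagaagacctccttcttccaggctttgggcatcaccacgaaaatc

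Over the 8 tumors, Rpl5 held 347424 counts and Rpl5-ps1 765659. Rps6 held 33850 counts and Gm16409 alone 293955, while Rplp0 held 560350 and its copy 497162. For these pairs, a large part of the joint counts of gene and copy stood on the pseudogene row.

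In all, 550 counted pseudogenes shared at least 1 window with a member, and 72 members had at least 1 of them, with a median of 4. Each pseudogene was assigned to the member with which it shared most windows. Pseudogenes held more counts than the gene itself for 42 members. The split was uneven: for 34 members over 70% of the joint counts were on pseudogenes, as for Rpl12 (89.2%) and Rpl29 (97.5%), and for 23 members with such pseudogenes under 10% were, as for Rps12 (0.814% with 19 pseudogenes) and Rps27a (2.31%).

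The 81 genes took 2.89% to 4.89% of all counts in a tumor, and their 550 pseudogenes 2.56% to 5.01%. The member share was 3.25% and 3.51% in primary AS1 and AS2, 3.43% and 3.30% in metastatic AS1 and AS2, 4.89% and 2.89% in primary CR1 and CR2, and 3.26% and 3.11% in metastatic CR1 and CR2. Primary CR1 was the highest in both quantities, and the other 7 tumors lay close together in these shares of all counts. The mean member share was 3.37% ± 0.120 (SD, n = 4) in AS and 3.53% ± 0.914 (SD, n = 4) in CR, or 3.08% ± 0.187 (SD, n = 3) without primary CR1, and 3.63% ± 0.874 (SD, n = 4) in primary and 3.27% ± 0.130 (SD, n = 4) in metastatic tumors. The order of the tumors depended on the scaling. As summed CPM, the members stood at 29679 to 34275 in AS, 35583 in primary CR2, 38610 in metastatic CR1 and 27223 in metastatic CR2. Primary CR1 was again the highest, at 45487 CPM. Of protein-coding counts, the members took 5.18% to 5.85% in AS, 7.80% in primary CR1 and 4.49% to 5.63% in the other CR tumors. Pseudogenes held 99.0 to 105 counts per 100 member counts in the AS tumors and 103 in primary CR1, against 87.4 to 94.9 in the other 3 CR tumors.

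**Figure D1:**
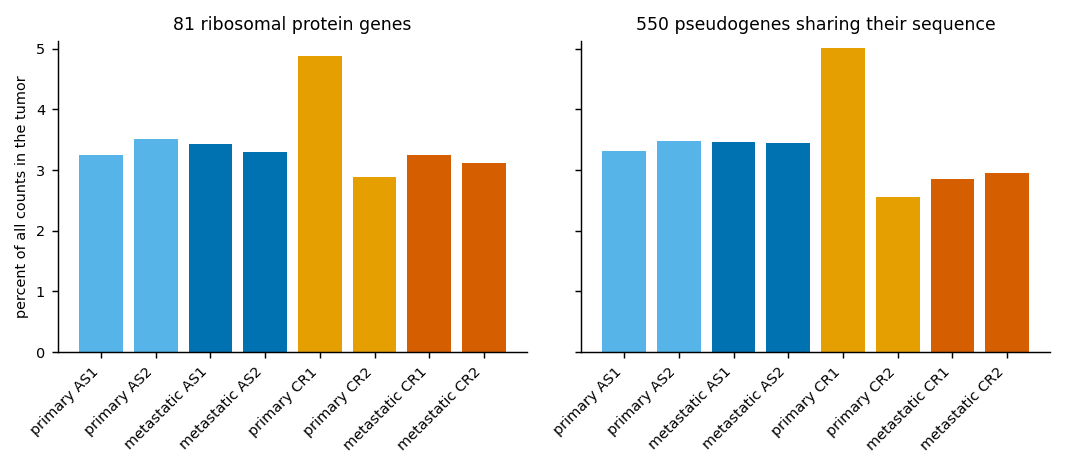
Bars give, for each of the 8 tumors, the percent of all counts on the 81 ribosomal protein genes (left) and on the 550 pseudogenes that share sequence with them (right), with colours for the 4 groups. Primary CR1 is the highest in both panels, at 4.89% and 5.01%, and the other tumors lie between 2.56% and 3.51%.

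Levels per length differed widely between genes of one complex. As CPM per kilobase of the principal transcript, averaged over the 8 tumors, 78 tested genes with a known transcript ran from 0.256 (Rpl3l) to 2087 (Rps12), with a median of 325. The 56 genes with no unique coding window had a median of 188 CPM per kilobase, and the 21 with some unique coding windows 621. The unique share of the whole principal transcript and the level per kilobase had a Spearman rho of 0.09 across 78 genes, a description. Rps27, with the lowest unique share of the transcript, stood at 1127 CPM per kilobase.

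The comparison of metastatic with primary tumors asked whether the genes differ by tumor type, whatever the phenotype. Phenotype was not a covariate in this fit, so differences between AS and CR tumors add to its spread. No member passed an adjusted p of 0.05 in edgeR's quasi-likelihood test, where 0% of 17104 genes passed. At an unadjusted p under 0.05, 1 of 79 members passed, against a background of 2.68% of all genes, and DESeq2 called 0 members. The fitted log2 fold changes had a median of -0.19 over the members and -0.03 over all genes, and 15 of 79 were positive, against 46.2% of all genes. Without primary CR1, the member median was -0.09.

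The gene with an unadjusted p under 0.05 was Rpl34, a protein of the large subunit. It stood at 193, 208, 369 and 176 CPM in primary AS1, AS2, CR1 and CR2, and at 170, 151, 156 and 128 CPM in the metastatic tumors in the same order. All metastatic tumors lay below all primary tumors, which was so for 1 of 79 members and for 0.848% of all genes in this direction. The log2 fold change was -0.64 ± 0.26 (SE), with an adjusted p of 0.997 in edgeR, and primary CR1 lay well above the other primary tumors. Without it the value was -0.35.

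Other genes with the smallest p in the lower direction were Rplp1 (log2 fold change -0.58 ± 0.28 SE), Rps10 (-0.52 ± 0.26), Rps27 (-0.46 ± 0.24) and Rpl35a (-0.37 ± 0.21). In the higher direction they were Rps16 (0.39 ± 0.35), Rpl17 (0.26 ± 0.32), Rps24 (0.23 ± 0.29), Rps6 (0.26 ± 0.35) and Rpl29 (0.28 ± 0.39). None of these 9 passed, with adjusted p of 0.997 in edgeR for each.

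Within phenotypes the same comparison called 0 members in AS and 0 in CR, with 0% of 18889 genes called in each, and at an unadjusted p under 0.05 there were 0 and 6 members against 2.45% and 7.75% of all genes. The interaction of tumor type and phenotype called 0 members in edgeR, with 0% of genes called, and had 0 members at an unadjusted p under 0.05 against 2.74% of all genes, and DESeq2 also called 0 members.

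The comparison of CR with AS tumors asked how the genes differ with androgen dependence. With tumor type as covariate, 11 of 79 members passed and all were higher in CR, against backgrounds of 12.2% of 17104 genes in either direction and 6.16% in the higher direction. The 13.9% of members called in either direction was thus near the background, and no member passed in the lower direction, where 6.01% of all genes did. At an unadjusted p under 0.05 there were 24 members, 22 of them higher, against 28.8% of all genes in either direction and 14.3% in the higher. The called genes were Rpl5, Rpl12, Rpl15, Rpl17, Rpl21, Rpl23a, Rpl28, Rpl35 and Rpl39 of the large subunit and Rps6 and Rps24 of the small. The member median of the log2 fold change was 0.12, that of all genes -0.01, and 51 of 79 members were positive. The count of members varied when 1 tumor was left out. It was 0 without metastatic AS1 or metastatic AS2, and 1 without primary AS1, primary AS2, metastatic CR1 or primary CR2. It was 5 without metastatic CR2, and 27 without primary CR1, where 23.8% of 17393 genes were called. With any other tumor left out, the share of all genes called is not reported here. Whether the members changed more than other genes therefore cannot be judged from these counts. In 15 members all CR tumors lay above all AS tumors, against 9.09% of all genes, and in 0 members did all lie below, against 9.82%.

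Without primary CR1, the members divided. Of 79, 27 were called, against 23.8% of 17393 genes, with 18 higher and 9 lower in CR, where 10.4% and 13.3% of all genes were. All 11 genes called with 8 tumors were among the 18. The split depended on the scaling, with 13 higher and 22 lower when library totals replaced TMM, where 5.51% and 16.5% of all genes were called and the median of all genes was -0.22. The lower genes included Rpl24, Rpl37a, Rplp0, Rplp1, Rps14, Rps21 and Rps29. The member median was 0.01, with quartiles of -0.41 and 0.48. The CR tumors other than primary CR1 lay above all AS tumors in 20 members and below them in 18, against 15.5% and 19.9% of all genes. In 21 of the 27 genes called, primary CR1 was nearer to the AS mean than to the mean of the other CR tumors, or 77.8%, and in 62.0% of the 4107 other genes called. These genes were selected for a difference between the AS and the other CR tumors, and genes are not independent. The shares are descriptions only.

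**Figure D2:**
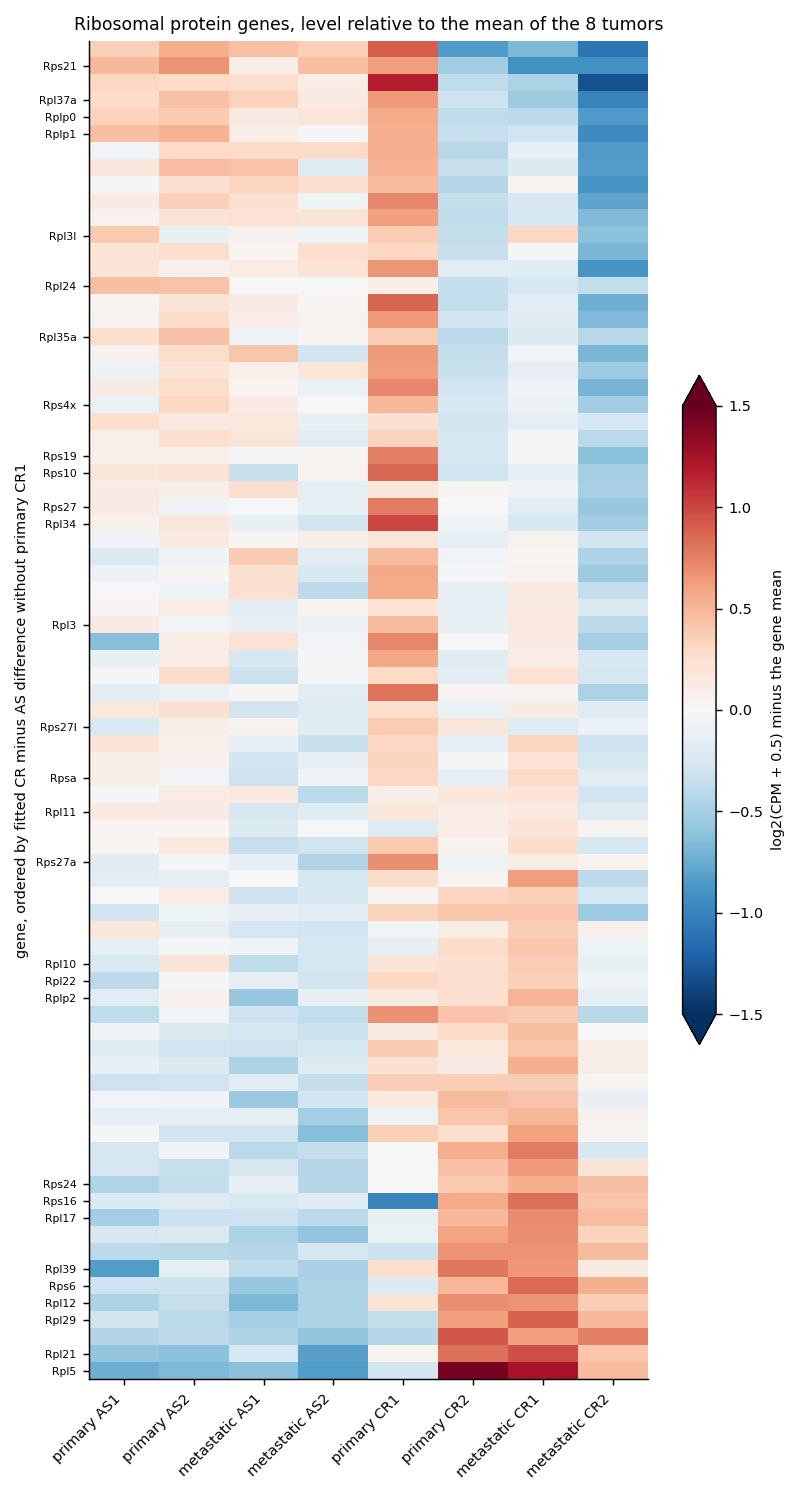
Each row is 1 of 79 ribosomal protein genes and each column 1 of 8 tumors, with colour giving log2(CPM + 0.5) minus the mean of that gene over the tumors, and with names on the rows of genes chosen by the naming rule. Rows are ordered by the CR minus AS difference without primary CR1, so the 3 CR tumors at the right run from low at the top to high at the bottom by construction, while primary CR1 is high in most of the upper rows.

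Rpl5, which with Rpl11 can bind Mdm2, had the largest fitted difference of the members. It stood at 488, 512, 527 and 455 CPM in primary AS1 and AS2 and metastatic AS1 and AS2, at 670 CPM in primary CR1 and at 2204, 1923 and 1134 CPM in primary CR2, metastatic CR1 and metastatic CR2. The groups did not overlap, and primary CR1 lay between the AS tumors and the other CR tumors, close to the AS tumors. The log2 fold change was 1.58 ± 0.35 (SE, adjusted p = 0.0259 in edgeR), and 1.84 ± 0.22 (adjusted p = 0.00168) without primary CR1. Its summed pseudogenes ran from 1628 to 1943 CPM in AS and stood at 2828 CPM in primary CR1 and 1733 to 2348 CPM in the other CR tumors, ranges that overlap. With pseudogene counts added to the gene the log2 fold change was 0.73 ± 0.20 (adjusted p = 0.0504).

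Its partner Rpl11 differed less. It stood at 65.5, 65.1, 50.1 and 52.6 CPM in the AS tumors in the order above and at 67.2, 63.5, 65.7 and 52.4 CPM in primary CR1 and CR2 and metastatic CR1 and CR2. The groups overlapped, with a log2 fold change of 0.10 ± 0.13 (SE, adjusted p = 0.659 in edgeR).

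Rps6, the small subunit protein that S6 kinases phosphorylate, stood at 63.5, 62.7, 52.8 and 56.7 CPM in the AS tumors, at 68.3 CPM in primary CR1 and at 111, 143 and 114 CPM in the other CR tumors. All CR tumors lay above all AS tumors. The log2 fold change was 0.87 ± 0.22 (SE, adjusted p = 0.0356 in edgeR). Over the 8 tumors its pseudogenes held 645754 counts and the gene 33850, and adding them brought the value to 0.28 ± 0.16 (adjusted p = 0.292).

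Rpl12, a protein at the base of the ribosomal stalk, stood at 130, 141, 112 and 129 CPM in the AS tumors and at 206, 289, 285 and 230 CPM in primary CR1, primary CR2 and metastatic CR1 and CR2. Every CR tumor was higher than every AS tumor, primary CR1 included. It had the smallest p of all members, with a log2 fold change of 0.98 ± 0.17 (SE, adjusted p = 0.0119 in edgeR). With pseudogene counts added, the value was 0.42 ± 0.19 (adjusted p = 0.179).

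Rpl21, a large subunit protein with 48 counted pseudogenes, rose by 1.16 ± 0.23 (SE, log2, adjusted p = 0.0189 in edgeR), from 223 ± 36.5 CPM (SD, n = 4) in AS to 501 ± 137 CPM (SD, n = 4) in CR. Rpl39, one of the smallest ribosomal proteins, rose by 0.93 ± 0.21 (adjusted p = 0.0285), from 84.2 ± 16.3 to 161 ± 34.7 CPM, and Rpl17, which lies at the polypeptide exit, by 0.79 ± 0.19 (adjusted p = 0.0323), from 439 ± 28.1 to 766 ± 171 CPM. These 3 genes had no overlap between the groups. With pseudogene counts added, Rpl17 (0.77 ± 0.19, adjusted p = 0.0332) and Rpl21 (0.83 ± 0.20, adjusted p = 0.0337) stayed past the threshold, and Rpl39 (0.48 ± 0.24, adjusted p = 0.228) did not. Of the other called genes, named because they passed, Rps24 and Rpl35 also stayed called with the pseudogenes added.

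The ribosomal stalk is built of Rplp0 and pairs of Rplp1 and Rplp2, and its members did not share a direction. Rplp0 stood at 1293, 1335, 1119 and 1154 CPM in the AS tumors, at 1496 CPM in primary CR1 and at 777, 776 and 563 CPM in the other CR tumors. The 3 other CR tumors lay below every AS tumor and primary CR1 above them. With 8 tumors the log2 fold change was -0.49 ± 0.25 (SE, adjusted p = 0.235 in edgeR), and without primary CR1 it fell by 0.77 on the log2 scale (adjusted p = 0.0163). The summed pseudogenes of Rplp0 had the same order, at 1587 to 1864 CPM in AS, 2454 CPM in primary CR1 and 807 to 1112 CPM in the other CR tumors, and with them added the value without primary CR1 was -0.75 ± 0.18 (adjusted p = 0.0238). Rplp1 had 449 ± 81.4 CPM (SD, n = 4) in AS, 539 CPM in primary CR1 and 262 ± 60.1 CPM (SD, n = 3) in the other CR tumors, and was called lower without primary CR1 (-0.71 ± 0.19, adjusted p = 0.0295). Rplp2 had 56.2 ± 9.88 CPM in AS and 73.6 ± 13.8 CPM in CR, and did not pass in either fit, at 0.40 ± 0.19 (adjusted p = 0.207) with 8 tumors.

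Of the genes with the smallest p in the lower direction, Rps21 stood at 254, 288, 194 and 247 CPM in AS, at 278 CPM in primary CR1 and at 126, 96.2 and 95.6 CPM in the other CR tumors. Primary CR1 lay within the range of the AS tumors. The log2 fold change was -0.81 ± 0.27 (SE, adjusted p = 0.0887 in edgeR) with 8 tumors and -1.17 ± 0.15 (adjusted p = 0.00185) without primary CR1. Rps21 has 76.5% of its coding windows unique, and 3.98% of the joint counts were on its pseudogene. Rpl37a stood at 465 ± 40.0 CPM (SD, n = 4) in AS, 587 CPM in primary CR1 and 251 ± 58.1 CPM (SD, n = 3) in the other CR tumors, with -0.87 ± 0.18 (adjusted p = 0.0113) without primary CR1.

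The largest fitted decrease without primary CR1 was that of Rps14, a small subunit protein, which was chosen after its values were seen. It stood at 417, 474, 441 and 414 CPM in AS, at 610 CPM in primary CR1 and at 180, 202 and 152 CPM in the other CR tumors. The log2 fold change was -1.29 ± 0.16 (SE, adjusted p = 0.00182 in edgeR) without primary CR1, and -0.72 ± 0.38 (adjusted p = 0.247) with it. Its pseudogene, on which no test was run, stood at 273 to 322 CPM in AS, at 444 CPM in primary CR1 and at 122 to 148 CPM in the other CR tumors. The row named Rpl24 (-0.51 ± 0.15, adjusted p = 0.0431 without primary CR1) carries an identifier that GENCODE M21 gives to the neighbouring gene Zbtb11, so its counts may come from both.

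**Figure D3:**
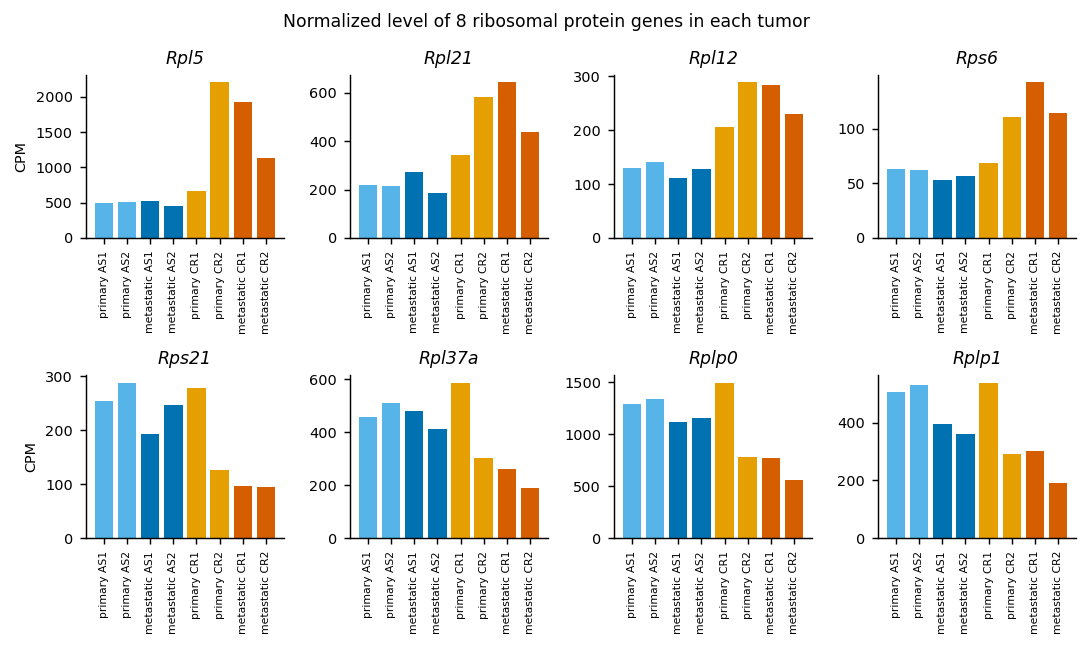
Bars give the CPM of 8 ribosomal protein genes in each tumor, in the order primary AS, metastatic AS, primary CR and metastatic CR, on axes that start at 0. In the upper row primary CR2 and the metastatic CR tumors exceed every AS tumor, in the lower row they lie below every AS tumor, and in the lower row primary CR1 lies within or above the range of the AS tumors.

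**Figure D4:**
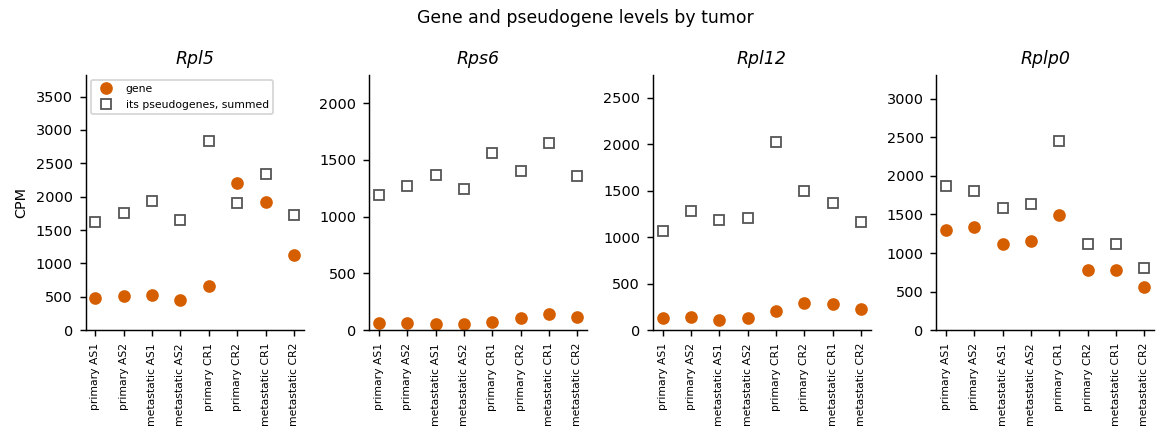
Filled circles give the CPM of the gene and open squares the summed CPM of its assigned pseudogenes, for Rpl5, Rps6, Rpl12 and Rplp0 in the 8 tumors. Rpl5 reaches 2204 CPM in primary CR2 while its pseudogenes stay between 1628 and 2828 CPM, and the pseudogenes of Rplp0 are lowest in the same 3 CR tumors as the gene.

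The remaining genes chosen by name did not pass the test of phenotype with 8 tumors. Rpsa, also known as the laminin receptor, had 122 ± 14.0 CPM (SD, n = 4) in AS and 137 ± 24.1 CPM (SD, n = 4) in CR, a log2 fold change of 0.17 ± 0.17 (adjusted p = 0.541 in edgeR). Rps27a, made as a fusion with ubiquitin, had 810 ± 98.7 and 1079 ± 280 CPM (0.41 ± 0.21, adjusted p = 0.225), and primary CR1 alone reached 1493 CPM. Rps19, mutated in Diamond-Blackfan anemia, stood at 140 to 150 CPM in AS and 93.1 to 241 CPM in CR (-0.01 ± 0.25, adjusted p = 0.983). Rpl22 had 469 ± 52.0 and 629 ± 79.6 CPM (0.42 ± 0.17, adjusted p = 0.146). A p that misses the threshold in groups of this size does not show equal levels.

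Tissue-restricted paralogs were near absent. Rpl3l, the muscle counterpart of Rpl3, held 185 counts in all 8 tumors, 0.0418 to 0.590 CPM, while Rpl3 stood at 959 to 1758 CPM. Rpl10l, which replaces Rpl10 in male germ cells, had 4 counts in metastatic AS2, 2 in metastatic CR2 and 0 in the other 6 tumors, and Rpl39l had 2 counts in metastatic CR2 and 0 in the other 7. Their parents Rpl10 and Rpl39 stood at 103 to 174 CPM and 63.9 to 199 CPM. Rps4l, listed as Rps4y2 and not a member by the rule, ran from 0 to 0.142 CPM, and its parent Rps4x stood at 243 to 491 CPM. Rps27l, a paralog of Rps27 that p53 can induce, was expressed in every tumor at 77.6 to 119 CPM, and did not pass the test of phenotype (0.13 ± 0.16, adjusted p = 0.638 in edgeR). Rps27 itself had 373 ± 28.0 CPM in AS and 404 ± 171 CPM in CR (0.06 ± 0.24, adjusted p = 0.889), and primary CR1 stood at 649 CPM.

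Within primary tumors and within metastatic tumors, CR against AS called 0 members each, where 0.296% and 0.36% of 18889 genes were called. At an unadjusted p under 0.05 there were 6 and 17 members, against 14.2% and 19.9% of all genes. Rpl12 differed by 0.85 ± 0.26 (SE, log2, adjusted p = 0.216 in edgeR) in primary and 1.06 ± 0.26 (adjusted p = 0.0922) in metastatic tumors, and Rps21 by -0.43 ± 0.37 (adjusted p = 0.660) and -1.24 ± 0.37 (adjusted p = 0.130). The primary CR group includes primary CR1, where Rps21 stood at 278 CPM, against 126 CPM in primary CR2. The interaction for Rps21 was -0.81 ± 0.52 (adjusted p = 0.964 in edgeR).

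The CR minus AS difference was also described by transcript length and by hosted small nucleolar RNA (snoRNA) genes. SnoRNAs guide the modification of ribosomal RNA, and many are cut from introns of ribosomal protein genes. GENCODE M21 placed 58 snoRNA genes inside 30 of the members. With 8 tumors the 30 hosts had a median log2 fold change of 0.37, 26 of them positive and 6 called higher, and the 48 other genes 0.02, with 25 positive and 5 called higher. Without primary CR1, the hosts had a median of 0.41 with 11 called higher and 1 lower, and the others -0.18 with 7 higher and 7 lower. With pseudogene counts added and 8 tumors, the medians were 0.09 in the hosts, 19 of them positive and 2 called higher, and -0.09 in the others, with 21 positive and 2 called higher. These calls stand beside 6.16% of all genes called higher with 8 tumors, and 10.4% higher and 13.3% lower without primary CR1. With pseudogene counts added, the share of all genes called is not reported here. The difference between hosts and other genes was not tested. Whether the counted reads came from exons, introns or hosted RNAs is not given in the sources used here.

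The length of the principal transcript and the log2 fold change had a Spearman rho of 0.42 across 78 genes with 8 tumors and 0.42 without primary CR1. For GC content rho was -0.25 in both, and for the unique share of the transcript -0.04 and -0.05. With pseudogene counts added, rho was 0.37 for length and -0.39 for GC content. The metastatic minus primary difference, in which no gene was called, gave rho of 0.36 for length, 0.28 for the number of hosted snoRNA genes and -0.26 for GC content. The points share the same libraries, and the 3 CR tumors also differ from the others in depth and in the counts on Lars2, mt-Rnr1 and mt-Rnr2, whose part in these differences was not tested. By subunit, the median without primary CR1 was 0.10 in 46 large subunit genes and -0.03 in 32 small subunit genes.

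**Figure D5:**
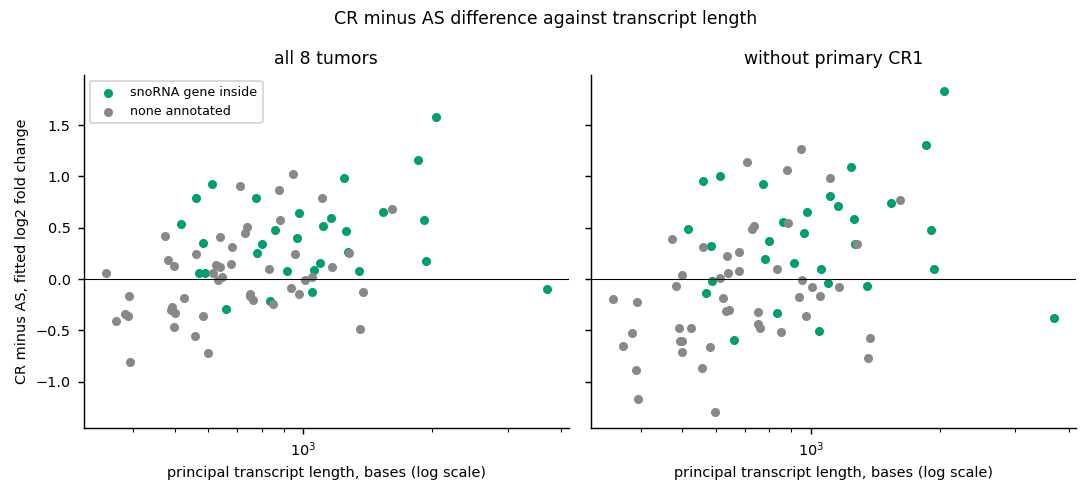
Each point is 1 of 78 ribosomal protein genes, with the length of its principal transcript in bases on a log axis and the fitted CR minus AS log2 fold change, for all 8 tumors (left) and without primary CR1 (right). Green marks the 30 genes with an annotated snoRNA gene inside, whose medians of 0.37 and 0.41 lie above those of the grey genes, 0.02 and -0.18.

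Promoters were available for 61 of the members in RefSeq (GRCm38.p6, 250 bases before to 50 after each start). CGGAAG on either strand, one string that ETS factors can bind, was in the promoters of 42 of 61 members, or 68.9%, and of 18.8% of all 27025 genes. A pyrimidine tract of at least 6 bases that opens with C, from 20 bases before to 30 after the start on the sense strand, was in 45 of 61, or 73.8%, against 38.2% of all genes. The Myc E-box CACGTG was in 6 of 61, or 9.84%, against 8.09%, and TATAAA on either strand in 6 of 61 against 15.7%. The tract can overlap CTTCCG, and a match is a description of the letters only.

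Promoter stretches of genes that were higher (Rpl12, Rpl35, Rps6) or lower (Rps21) in the 3 CR tumors show these letters side by side. Each runs from 85 bases before to 15 after the annotated start, 5′ to 3′ on the strand of the gene, with CGGAAG or CTTCCG and the pyrimidine tract in capitals. They lie in GRCm38.p6 at chr2:32961627-32961726 (plus), chr2:39005117-39005216 (minus), chr4:86857353-86857452 (minus) and chr2:180257294-180257393 (plus).
Rpl12: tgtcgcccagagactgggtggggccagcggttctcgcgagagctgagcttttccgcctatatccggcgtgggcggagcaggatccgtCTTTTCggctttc
Rpl35: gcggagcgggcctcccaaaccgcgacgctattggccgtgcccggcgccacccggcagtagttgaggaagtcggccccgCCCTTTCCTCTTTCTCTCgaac
Rps6: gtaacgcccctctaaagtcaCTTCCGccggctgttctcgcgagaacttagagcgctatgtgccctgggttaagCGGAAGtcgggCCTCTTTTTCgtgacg
Rps21: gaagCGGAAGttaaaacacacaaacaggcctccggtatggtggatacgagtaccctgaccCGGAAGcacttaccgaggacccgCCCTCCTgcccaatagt

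CGGAAG or CTTCCG appeared in both directions of change, in Rps6 and in Rps21, and was not in these stretches of Rpl12 and Rpl35. Shorter or other forms of the ETS site were not searched.

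Other genes of the translation machinery were counted by list, and these counts stand beside 6.16% of all genes called higher and 6.01% lower with 8 tumors, and 10.4% and 13.3% without primary CR1. Of 16 other TOP mRNA genes tested, 1 passed in CR against AS with 8 tumors, Npm1, a nucleolar chaperone of ribosome assembly, which rose by 0.95 ± 0.23 (SE, log2, adjusted p = 0.0342 in edgeR). Without primary CR1, 3 rose and 0 fell, and Pabpc1, the poly(A) binding protein, rose by 1.58 ± 0.43 (adjusted p = 0.0333). The elongation factor Eef2 had 1649 to 3388 CPM in the 3 CR tumors and 2788 to 3086 CPM in AS. Of 13 genes of mTORC1 signalling, 1 rose with 8 tumors, the S6 kinase gene Rps6kb1 (0.64 ± 0.15, adjusted p = 0.0289). Without primary CR1, Rps6kb1 rose and Mlst8, a subunit of the mTOR complexes, fell by 1.15 on the log2 scale (adjusted p = 0.0046).

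In the list of the ribosomal protein and p53 loop, Mdm2 fell by 0.61 on the log2 scale with 8 tumors (adjusted p = 0.0332 in edgeR), from 32.8 to 36.0 CPM in AS to 18.9 to 27.0 CPM in CR, and Trp53, Cdkn1a and Mdm4 did not pass. Of 10 polymerase I and assembly factor genes, 1 rose with 8 tumors, Nop58, a core protein of box C/D snoRNPs (0.72 ± 0.18, adjusted p = 0.0332). None of the 6 ribosomal protein genes outside the naming rule, such as Fau and Gnb2l1, passed in any of these fits. The 76 mitochondrial ribosomal protein genes, which serve a separate ribosome, had 3 genes higher and 2 lower in CR with 8 tumors, and 3 higher and 25 lower without primary CR1, where 13.3% of all genes were lower. Their summed level was 1976 to 2069 CPM in AS, 2191 CPM in primary CR1 and 1620 to 1714 CPM in the other CR tumors. For metastatic against primary tumors, 0 genes of these lists passed in edgeR.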

How the data were processed

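RNA of 8 Myc-CaP tumors was depleted of ribosomal RNA and sequenced as stranded paired reads. The deposited values are whole-number counts per gene that the authors made from reads with 1 location in the mouse genome (mm10, GRCm38) at up to 2 mismatches. The study's methods name Bowtie, and the submitters' processing notes name CASAVA 1.8.2 and TopHat2 2.0. The counting tool, its use of strand and the annotation release are not given in the sources used here. Total counts were 20905806 to 91886163 per tumor.

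Counts were scaled by TMM, genes were filtered with filterByExpr, and differences were tested with edgeR 4.0.16 (R 4.3.3) by the quasi-likelihood test, two-sided, with Benjamini-Hochberg adjustment over all genes tested and a threshold of 0.05. The study's results give 3 primary tumors without naming them, and all 4 deposited primary tumors were used. Metastatic was compared with primary without a covariate (4 against 4), and CR with AS with tumor type as covariate (4 against 4). The interaction and the comparisons within groups were fitted on the 4 groups of 2. The scripts were tested on simulated counts. CPM values use effective library sizes. Mean ± SD is over tumors and SE is that of the fitted log2 fold change.

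Windows of one read length of GENCODE M21 transcripts were matched, with up to 2 mismatches, to the transcripts of other genes. A search of the whole genome had been planned and was replaced because transcripts, and no genome sequence, were used here, so unannotated copies are missed. Each counted pseudogene was assigned to the member with which it shared most windows. Promoters came from RefSeq, and 1 member identifier (Rpl24) names another gene in GENCODE M21 and has no sequence values.

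Genes described singly were the 5 with the smallest p in each direction of both comparisons, and a list of stalk proteins, Rpl5, Rpl11, Rps6, Rpsa, Rps27a, Rps19, Rpl22 and paralogs with their parents. Members named for being called, for a sequence value or for an extreme, such as Rps14, Rps12, Rps3 and Rpl8, were chosen after their values were seen. Some genes are counted among the members and lists but not reported here by name. Members and lists were chosen with earlier results of these data known. Alternatives were DESeq2 1.42.0, RLE factors, library and protein-coding totals, no filter and a stricter one (CPM of at least 1 in at least 4 tumors), covariates, added pseudogene counts, possible pairings, and each tumor left out. Those that combine leaving out primary CR1 with another choice were added after seeing the data.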

Additional observations from a re-analysis of the deposited data

Results flagged for a closer look

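Within groups of 4 tumors by type or phenotype, 140 groups of values were examined for 1 tumor far from the other 3 by Dixon's criterion, and 18 stood out. The criterion has a false-positive rate of 5% per group when nothing differs, and the groups share tumors.

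Among primary tumors, primary CR2 stood apart with Rps6 at 111 CPM (62.7 to 68.3 in the others), Rpl29 at 16.9 CPM (8.03 to 8.88), Rpl5 at 2204 CPM (488 to 670) and Rplp1 at 292 CPM (505 to 539). Primary CR1 stood apart among them with Rpl34 at 369 CPM (176 to 208), Rps27 at 649 CPM (363 to 411) and Rps27a at 1493 CPM (816 to 903). Primary AS1 had Rpl10 at 115 CPM (154 to 159). Each of these groups of primary tumors mixes both phenotypes.

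Among metastatic tumors, metastatic CR1 had Rpl11 at 65.7 CPM (50.1 to 52.6), and metastatic CR2 had Rps19 at 93.1 CPM (140 to 145). Among CR tumors, primary CR1 had Rps21 at 278 CPM (95.6 to 126), pseudogenes at 5.01% of all counts (2.56% to 2.95%) and the large subunit at 55.4% of member counts (60.9% to 61.7%). Among AS tumors, primary AS1 had pseudogenes at 3.31% of all counts (3.45% to 3.47%).

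The germ cell paralogs stood out because the other tumors were at 0: Rpl10l at 0.0392 CPM in metastatic AS2 and 0.0837 CPM in metastatic CR2, and Rpl39l at 0.0837 CPM in metastatic CR2, among both metastatic and CR tumors. These values rest on 4, 2 and 2 counts.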

How the results depend on the processing

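No paired analysis was possible because the labels do not say which primary tumor each metastasis is matched with. No fit of CR against AS allowed for hosts that matched tumors may share. Each of the 4 possible pairings as a replicate block called 0 members for metastatic against primary tumors, with medians of -0.20. All other alternatives to that comparison also called 0 members, and its median ran from -0.28 to -0.09 when 1 tumor was left out and from -0.25 to -0.11 otherwise.

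For CR against AS, the 11 calls became 18 with DESeq2 (17 higher, 1 lower), 4 with library totals and 4 with pseudogene counts added, and 0 to 27 with 1 tumor left out. With primary CR1 left out there were 28 with RLE factors, 28 with protein-coding totals, 35 with library totals (13 higher, 22 lower) and 19 with pseudogene counts added (7 higher, 12 lower), and the member median moved to -0.19 with library totals, where the median of all genes was -0.22, and to -0.16 with pseudogene counts added. Library totals alone moved the median of all genes to -0.12. The cause was not tested. The other alternatives gave 12 to 15 calls. Except with primary CR1 left out, under TMM or library totals, the shares of all genes called in these alternatives are not reported here. Their counts therefore do not show whether the members changed more than other genes. The interaction stayed at 0 members with DESeq2 and with no filter.

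Of 1158 values of single members under alternatives, 52 lost a call, 42 gained one and 0 called values reversed. Among values with no call in either setting, 29 of metastatic against primary and 56 of CR against AS changed sign. Of these, 39 moved by at least 0.199 on the log2 scale, the pooled spread within groups of the median member log2 CPM. This is not the spread of the single genes.

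Groups of 2 tumors and reads shared with pseudogenes limit all levels, and Rpl10l and Rpl39l have too few counts for any comparison. The part of the lower depth of 3 CR tumors was not tested. Unique mapping can move reads between gene and pseudogene rows, so levels of different members are not comparable as measures of mRNA.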
